A study of Mus musculus with 12 samples.

Results

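HOX genes were examined in osteoblasts sorted from the metaphysis of mouse hindlimb bones, the growing end of the femur and tibia shafts. Members were all genes of the count table named as HOXA, HOXB, HOXC or HOXD genes with a number, without the antisense genes of the clusters. The rule found 39 genes of the 32288 genes and transgenes counted, with 11 in HOXA, 10 in HOXB, 9 in HOXC and 9 in HOXD. The rule used no measured value.

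HOX proteins are homeodomain transcription factors that give cells an address along the body axis and along the limb. Their genes sit side by side in clusters, and genes at matching places in different clusters form a paralog group, numbered from the anterior (3′) end of a cluster to its posterior (5′) end. In the limb, paralog group 10 is needed for the upper segment that holds the femur. Group 11 is needed for the segment that holds the tibia and group 13 for the foot. Mesenchymal and bone cells of the adult keep part of this code. HOX proteins bind DNA together with the TALE cofactors PBX, MEIS and PKNOX, and PITX1 and TBX4 mark the hindlimb as TBX5 marks the forelimb.

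Bulk RNA-seq measured 4 groups of mGFP+ cells from the distal femur and proximal tibia. Juvenile *Osx*+ osteoblasts (4 libraries, 3 weeks of age) and adult *Osx*+ osteoblasts (4 libraries, 8 weeks) came from *Osx-CreERT2*; *mTmG* mice, in which tamoxifen lets the osteoblast gene *Osx* (*Sp7*) switch on a membrane GFP. *c-Myc*-induced osteoblasts (2 libraries) also carried *LSL-tTA* and *Col1a1::TetO–c-Myc*, and *c-Myc* + *R172H* osteoblasts (2 libraries) carried *Trp53-LSL-R172H*, a mutant p53 allele, in addition. All mice received tamoxifen. Each control library pooled 2 males, sorted 2 days after the last of 3 doses, while cells with induced transgenes were sorted 7 days after 2 doses, and how many mice each such library pooled was not given. The labels give 3 weeks as the age of the induced groups, but the extraction protocol gives 5 weeks and trims the shaft about 5 mm from the growth plate, against about 2 mm in the controls. The paper also states that mice with inducible transgenes, or pregnant females, drank doxycycline or tetracycline, which was stopped before analysis. No such treatment is described for the controls. Induction of *c-Myc* therefore cannot be told apart from these differences in age, doses, interval, drinking water and stretch of bone.

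Total counts per library ran from 9066154 to 15684412, and the 39 HOX genes together received 725 to 2011 of them, so individual HOX values rest on few reads. *Myc* was at 286 to 506 counts in the controls and at 11599 to 15063 in the 4 induced libraries, while the counts do not tell the *R172H* allele from normal *Trp53*. *Xist* was at 4118 and 4263 counts in replicate 2 of both induced groups and at 0 to 11 in the other 10 libraries, and the Y-linked genes were at 0 or 1 in those 2 libraries, so results against the male controls were also computed without them. The 9 osteoblast markers were above 3 counts in every group, with summed levels of 567000 to 837000 CPM (counts scaled by library size and by TMM factors between libraries) in juvenile, 342000 to 617000 in adult, 99200 to 132000 in *c-Myc* and 56000 to 57900 in *c-Myc* + *R172H* libraries. Summed levels of the 13 chondrocyte markers moved too, from 18600 to 36200 CPM in juvenile and 43700 to 138000 CPM in adult libraries down to 1870 to 2120 CPM and 875 to 1050 CPM in the induced groups. The 7 marrow stromal markers summed to 338 to 431 CPM in juvenile, 440 to 673 in adult, 157 to 241 in *c-Myc* and 139 to 159 in *c-Myc* + *R172H* libraries, and the 10 blood markers to 0.457 to 1.49, 4.35 to 9.81, 7.77 to 7.95 and 2.58 to 4.76 CPM. The 6 tendon and periosteal fibroblast markers summed to 19.7 to 30.0 CPM in juvenile, 15.5 to 24.6 in adult, 11.5 to 14.3 in *c-Myc* and 10.8 to 10.9 in *c-Myc* + *R172H* libraries. Schwann markers reached at most 6.29 CPM, in an adult library. Markers of endothelium and muscle summed to 1.49 CPM or less in every library.

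Hindlimb osteoblasts expressed a broad HOX code. Paralog group 10 held the largest share of summed HOX counts per kb of exon in every library but adult replicate 3. There it held 15.1%, against 15.5% for group 2 and 15.3% for group 8. Of the 39 genes, 16 had more than 3 counts in all 12 libraries, 14 had more than 3 counts in some libraries, 6 never passed 3 counts and 3 (*Hoxb1*, *Hoxb13* and *Hoxd11*) had no count at all. A value of 3 counts corresponds to 0.137 to 0.417 CPM, depending on the library, and lower levels could not be detected at this depth. The 16 genes were *Hoxa3*, *Hoxa5*, *Hoxa7*, *Hoxa9*, *Hoxa10*, *Hoxa11*, *Hoxb2*, *Hoxb3*, *Hoxb4*, *Hoxc4*, *Hoxc6*, *Hoxc8*, *Hoxc9*, *Hoxc10*, *Hoxc11* and *Hoxd8*.

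**Figure D1:**
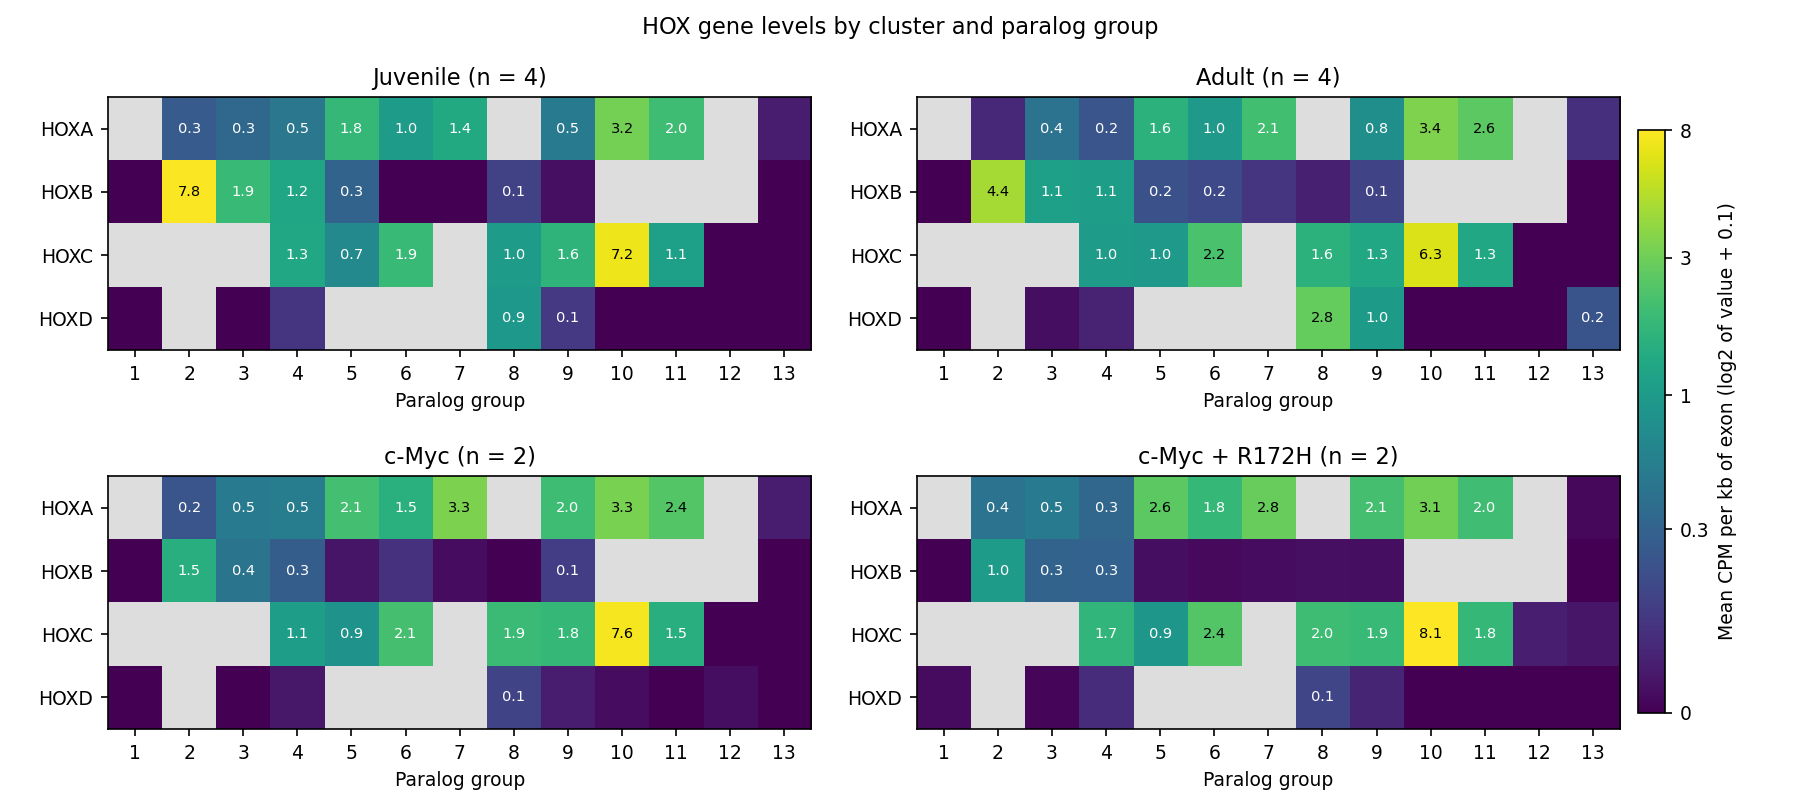
Mean HOX levels in CPM per kb of exon, on a log2 color scale after adding 0.1, with the HOX cluster on the vertical axis and the paralog group on the horizontal axis of each of 4 panels, 1 per group. Grey cells are paralogs that mice do not have or that are not shown, and numbers are given for means of at least 0.1. *Hoxc10* is at 6.34 to 8.05 in all groups, while *Hoxb2* goes from 7.85 in juvenile to 1.01 in *c-Myc* + *R172H* osteoblasts.

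Levels per kb of exon allow genes to be compared. By mean, *Hoxc10* was the highest gene in 3 groups, in adults with a range overlapping that of *Hoxb2*, and the second in juvenile osteoblasts. Its level was 7.19 ± 1.56 CPM per kb (SD, n = 4) in juvenile, 6.34 ± 2.37 (n = 4) in adult, 7.64 ± 1.30 (n = 2) in *c-Myc* and 8.05 ± 1.27 (n = 2) in *c-Myc* + *R172H* osteoblasts. *Hoxa10*, its paralog in HOXA, followed with 3.17 ± 0.414, 3.39 ± 1.48, 3.28 ± 0.0474 and 3.08 ± 0.277 CPM per kb in the same order. Both genes act in the patterning of the femur segment of the limb. The posterior limb genes of group 13 and the HOXD genes that pattern the distal limb were near or at 0.

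In juvenile osteoblasts, *Hoxb2* at 7.85 ± 3.05 CPM per kb and *Hoxc10* did not differ beyond their spread, and both stood above *Hoxa10*. *Hoxa11*, which patterns the tibia segment, had 1.99 ± 1.26 CPM per kb, and *Hoxb3* (1.89 ± 0.562), *Hoxc6* (1.87 ± 0.385), *Hoxa5* (1.79 ± 0.781) and *Hoxc9* (1.64 ± 0.784) could not be ordered within their spread. In adult osteoblasts the ranges of *Hoxc10* (2.98 to 8.49 CPM per kb) and *Hoxb2* (2.81 to 6.18) overlapped. There *Hoxd8*, at 2.77 ± 0.724 CPM per kb, came after *Hoxc10*, *Hoxb2* (4.44 ± 1.53) and *Hoxa10*. It could not be ordered against *Hoxa10* or *Hoxa11* (2.57 ± 0.492) within their spread. With *c-Myc*, *Hoxa7* was at 3.31 ± 0.502 CPM per kb beside *Hoxa10*, and *Hoxb2* was at 1.47 ± 0.203.

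By role, the anterior gene *Hoxd1* had 1 count in 1 library. The middle genes of groups 5 to 8, which pattern the trunk, were expressed from HOXA and HOXC and scarcely from HOXB, and *Hoxd8* of HOXD was detected in all 12 libraries. *Hoxb5* passed 3 counts in 5 libraries, *Hoxb6*, *Hoxb8* and *Hoxb9* each in 3, and *Hoxb7* in 1. *Hoxd4* passed it in 3 libraries and *Hoxd3*, *Hoxd10*, *Hoxd12*, *Hoxc12* and *Hoxc13* in none. *Hoxa13*, a foot gene, passed it in 1 library, at 4 counts, and *Hoxd13* in 1, at 19 counts. *Hoxa2* (6 libraries), *Hoxa4* (9), *Hoxa6* (10), *Hoxc5* (11) and *Hoxd9* (7) were also detected in part of the libraries.

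The make-up of the HOX code does not depend on the scaling between libraries, because each library is compared with itself. Shares of a common sum depend on each other, however, so a lower share of any cluster or paralog group raises those of the others. HOXB genes held 26.2% to 36.2% of the summed HOX counts per kb in juvenile libraries and 12.5% to 23.8% in adult libraries. They held 6.76% and 6.78% in *c-Myc* libraries and 4.06% and 5.19% in *c-Myc* + *R172H* libraries, below every control. HOXD genes held 2.03% to 4.16% in juvenile, 6.64% to 13.7% in adult and 0.385% to 1.24% in the 4 induced libraries. HOXA genes held 23.1% to 37.6% in the controls and 42.4% to 46.4% in the induced libraries, and HOXC genes held 32.1% to 46.5% and 45.9% to 51.2%.

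**Figure D2:**
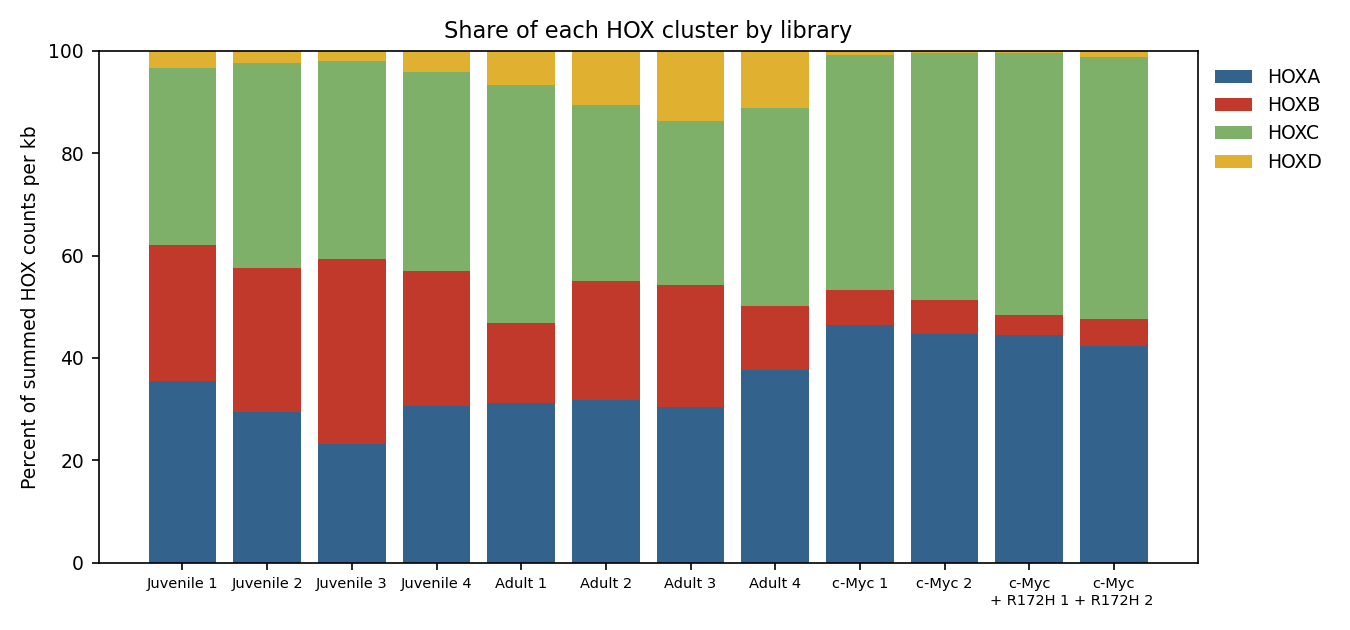
Stacked bars of the share of each HOX cluster, in percent of the summed HOX counts per kb of exon, for each of the 12 libraries on the horizontal axis. The HOXB part is 26.2% to 36.2% in juvenile libraries and 4.06% to 6.78% in the induced ones, and the HOXD part is largest in adult libraries.

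Paralog group 10 alone made up 23.6% to 30.4% of that sum in juvenile libraries, 15.1% to 29.2% in adult libraries, and 26.8% to 34.0% in the induced libraries. Groups 9 to 11 together made up 38.6% to 42.1%, 36.8% to 47.0% and 49.2% to 54.4%. Group 2, almost all *Hoxb2*, made up 13.9% to 28.0%, 6.81% to 15.5% and 3.75% to 4.91%. The lower share of group 2 in the induced libraries by itself raises the shares of the other groups. The summed level of all HOX genes was 93.7 to 123 CPM in juvenile, 93.8 to 117 CPM in adult, 89.5 and 98.6 CPM in *c-Myc* and 92.0 and 97.6 CPM in *c-Myc* + *R172H* libraries. These ranges overlapped, but with library totals in place of TMM the sums were 64.7 to 90.4, 79.4 to 112, 125 and 126, and 146 and 153 CPM.

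The comparison of juvenile with adult osteoblasts asked what sets the juvenile metaphysis apart. The HOX gene that differed was *Hoxd8*, lower in juvenile osteoblasts, while its neighbor *Hoxd9* missed the threshold. Both are active in the trunk and the limb. Enough counts for a test were found for 19 HOX genes, of which 0 were higher in juvenile osteoblasts, where 1.89% of all genes tested were, and 1 was lower, where 3.23% of all genes were. DESeq2 called 0 higher and 2 lower, and 4 of the 19 had an unadjusted p under 0.05. The median log2 fold change was -0.20 for the HOX genes and 0.00093 for all genes.

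*Hoxd8* was at 3.29, 2.17, 2.36 and 2.48 CPM in the 4 juvenile libraries and at 4.86, 7.79, 8.15 and 9.60 CPM in the 4 adult ones. The groups did not overlap, as for 2 of the 19 HOX genes and 12.9% of all genes tested between the ages. The level was 2.94-fold lower in juvenile osteoblasts (log2 fold change -1.56, SE 0.35, edgeR adjusted p = 0.0166). Without juvenile replicate 2 or adult replicate 4 the adjusted p was 0.0579 or 0.0649. Fewer cells that express the gene and less RNA per cell cannot be told apart in bulk samples. Summed levels of the 13 cartilage markers were also higher in adult libraries, as given above, and their part in the difference was not tested. Not every marker followed the sum: *Col10a1* had a mean of 1010 CPM in juvenile and 636 CPM in adult libraries. The cartilage sums of adult replicates 1 to 4 were 137900, 43710, 65360 and 85580 CPM.

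*Hoxd9*, a group 9 gene, was counted 0, 3, 0 and 5 times in juvenile libraries and 13, 14, 29 and 18 times in adult ones. The groups did not overlap here either, but the difference missed the threshold (log2 fold change -3.15, SE 0.96, edgeR adjusted p = 0.0664), while DESeq2 gave an adjusted p of 0.0179. *Hoxb2*, a hindbrain patterning gene, was at 16.4 to 41.4 CPM in juvenile and 9.81 to 21.6 CPM in adult libraries, which overlap, with a log2 fold change of 0.81 (SE 0.28) and an edgeR adjusted p of 0.112. Without the filter on low counts the adjusted p was 0.0159, and without adult replicate 2 it was 0.0419. *Hoxb3*, its neighbor, had a log2 fold change of 0.78 (SE 0.34, edgeR adjusted p = 0.213). For the femur genes *Hoxa10* and *Hoxc10* the log2 fold changes were -0.11 (SE 0.28) and 0.16 (SE 0.28).

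**Figure D3:**
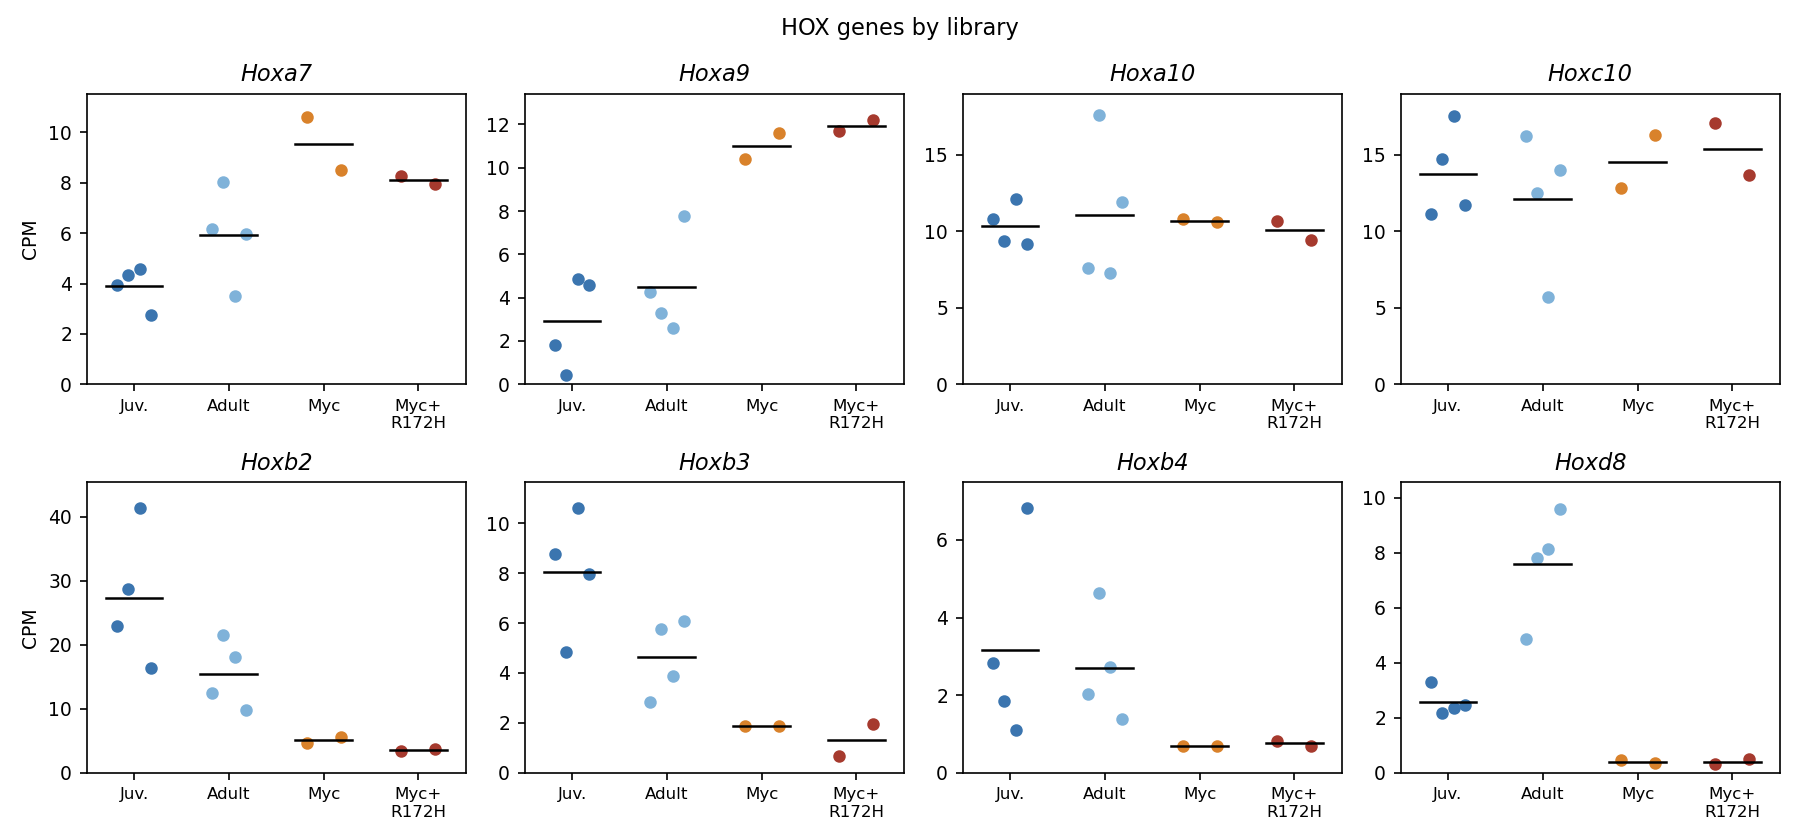
CPM of 8 HOX genes in every library (points) with the group mean (line), in juvenile, adult, *c-Myc* and *c-Myc* + *R172H* osteoblasts on the horizontal axis. *Hoxa9* is above and *Hoxb2*, *Hoxb3*, *Hoxb4* and *Hoxd8* are below every control in the 4 induced libraries, *Hoxa7* is above every juvenile library, and *Hoxa10* and *Hoxc10* overlap between all groups. Of all genes tested, 64.5% do not overlap between *c-Myc* and juvenile libraries and 66.7% between *c-Myc* + *R172H* and juvenile libraries.

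Induction of *c-Myc* addressed whether this oncogene changes juvenile osteoblasts. It went with opposite changes in different clusters: *Hoxa7* and *Hoxa9* rose, *Hoxb2*, *Hoxb3*, *Hoxb4* and *Hoxd8* fell, and no HOXC gene passed the test. The other 8 HOXA genes tested were not called. Of 21 HOX genes tested, 2 were higher, where 28.4% of all genes tested were, and 4 were lower, where 25.0% of all genes were, so the share of HOX genes called was not above that of all genes in either direction. The median log2 fold change was 0.11 for the HOX genes and 0.037 for all genes. With library totals in place of TMM the median of all genes moved to 0.87, and 10 HOX genes were called higher and 3 lower. The 10 were *Hoxa7*, *Hoxa9*, *Hoxa3*, *Hoxa5*, *Hoxa10* and the HOXC genes *Hoxc6*, *Hoxc8*, *Hoxc9*, *Hoxc10* and *Hoxc11*, so whether HOXC genes are called depends on the scaling. None of the 6 genes changed direction under any setting used.

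*Hoxa9*, known from blood progenitors and leukemia, was at 1.83, 0.413, 4.87 and 4.60 CPM in juvenile libraries and at 10.4 and 11.6 CPM in *c-Myc* libraries. The groups did not overlap, as for 7 of the 21 HOX genes and 64.5% of all genes tested in this comparison. The rise was 3.84-fold (log2 fold change 1.94, SE 0.52, edgeR adjusted p = 0.007). With the female library of each induced group left out, the adjusted p was 0.0879. The adult libraries held 2.59 to 7.78 CPM, also below both *c-Myc* libraries. Blood markers were higher in *c-Myc* and in adult than in juvenile libraries, as given above, with 5 of the 10 at or under 3 counts in both *c-Myc* libraries, and their part in the level of *Hoxa9* was not tested.

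*Hoxa7*, a trunk patterning gene next to it, was at 3.93, 4.33, 4.59 and 2.73 CPM in juvenile libraries and at 10.6 and 8.51 CPM in *c-Myc* libraries. Here too the groups were apart, and the rise was 2.41-fold (log2 fold change 1.27, SE 0.27, edgeR adjusted p = 0.00184). The adult libraries held 3.49 to 8.01 CPM, below both *c-Myc* libraries. The highest adult library stood above *c-Myc* + *R172H* replicate 2, at 7.94 CPM. Of its exon bases, 79.6% are free of the antisense gene *Hoxaas3*, which had at most 26 counts in any library against 150 and 231 of *Hoxa7* in *c-Myc* libraries.

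*Hoxa10*, the next gene after *Hoxa9*, did not pass the test, with 9.19 to 12.1 CPM in juvenile and 10.8 and 10.6 CPM in *c-Myc* libraries (log2 fold change 0.028, SE 0.21). The ratio of *Hoxa9* to *Hoxa10* counts within a library was 0.044 to 0.5 in juvenile, 0.186 to 0.652 in adult and 0.958 to 1.29 in the 4 induced libraries. That of *Hoxa7* to *Hoxa10* was 0.297 to 0.462, 0.455 to 0.813 and 0.774 to 0.975. *Hoxa2*, *Hoxa3*, *Hoxa4*, *Hoxa5*, *Hoxa6* and *Hoxa11* had log2 fold changes of -0.31 to 0.58.

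All 3 HOXB genes with enough counts for a test fell. *Hoxb2* was at 23.0, 28.7, 41.4 and 16.4 CPM in juvenile libraries and at 4.61 and 5.61 CPM in *c-Myc* libraries, a 5.42-fold fall (log2 fold change -2.44, SE 0.33, edgeR adjusted p = 5.32e-05). Every juvenile library stood above both *c-Myc* libraries. *Hoxb3*, which acts in hindbrain and neck patterning, went from 8.77, 4.85, 10.6 and 7.95 CPM to 1.87 and 1.87 CPM (log2 fold change -2.11, SE 0.47, edgeR adjusted p = 0.00231). The antisense gene *Hoxb3os* covers part of both, leaving 72.7% of the exon bases of *Hoxb2* and 47.1% of those of *Hoxb3* free, and it had at most 17 counts in any library, against 73 to 298 of *Hoxb2*. For *Hoxb3* the margin was smaller, with 41 and 33 counts against 10 and 5 of *Hoxb3os* in *c-Myc* libraries and 15 and 39 against 12 and 17 in *c-Myc* + *R172H* libraries. Since the strand setting is not known, reads of the pair cannot be told apart.

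*Hoxb4*, known for the expansion of blood stem cells, was at 2.83, 1.86, 1.11 and 6.83 CPM in juvenile libraries and at 0.685 and 0.681 CPM in *c-Myc* libraries (log2 fold change -2.22, SE 0.77, edgeR adjusted p = 0.0272). Its juvenile spread was wide, and without juvenile replicate 4, the highest library, the log2 fold change was -1.54 and the adjusted p was 0.0552. With 1 or the other *c-Myc* library left out, the adjusted p was 0.148 or 0.139, and with library totals it was 0.129 (log2 fold change -1.36). *Hoxb5* had too few counts for the test, with 9, 12, 7 and 3 counts in juvenile and 1 and 2 in *c-Myc* libraries, and DESeq2 gave it a log2 fold change of -3.48 (SE 1.35) and an adjusted p of 0.0231. With TMM computed without *Col1a1*, *Col1a2* and *Gm26917* it was tested by edgeR too (adjusted p = 0.0446).

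*Hoxd8* went from 2.17 to 3.29 CPM in juvenile libraries to 0.457 and 0.340 CPM, or 10 and 6 counts, in *c-Myc* libraries (6.44-fold lower, log2 fold change -2.69, SE 0.68, edgeR adjusted p = 0.00507). With replicate 1 or 2 of the *c-Myc* libraries left out, the adjusted p was 0.0548 or 0.0759. Summed cartilage markers were lower in the same libraries. Between the control ages, the sum of those markers was higher in adults. There the log2 fold change of juvenile over adult was 0.81 for *Hoxb2*, which did not pass the test, and -1.56 for *Hoxd8*, which did. Summed fibroblast and marrow stromal markers were also lower in *c-Myc* than in juvenile libraries, as given above. What part any of these signals has in the falls of *Hoxb2*, *Hoxb3*, *Hoxb4* and *Hoxd8* was not tested.

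The 7 HOXC genes tested had log2 fold changes of -0.29 to 0.90, with a median of 0.18. *Hoxc8*, which patterns the trunk, came closest to the threshold, at 1.37, 4.95, 3.20 and 1.99 CPM in juvenile libraries and 4.98 and 5.90 CPM in *c-Myc* libraries (log2 fold change 0.90, SE 0.43, edgeR adjusted p = 0.0996). The highest juvenile library lay just under the lower *c-Myc* library. Without juvenile replicate 2 its log2 fold change was 1.32 and the adjusted p was 0.0171. *Hoxc10* was at 11.1 to 17.5 CPM and at 12.8 and 16.3 CPM (log2 fold change 0.071, SE 0.22), and 91.3% of its exon bases are free of *Hoxc5*, which overlaps it on the same strand.

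**Figure D4:**
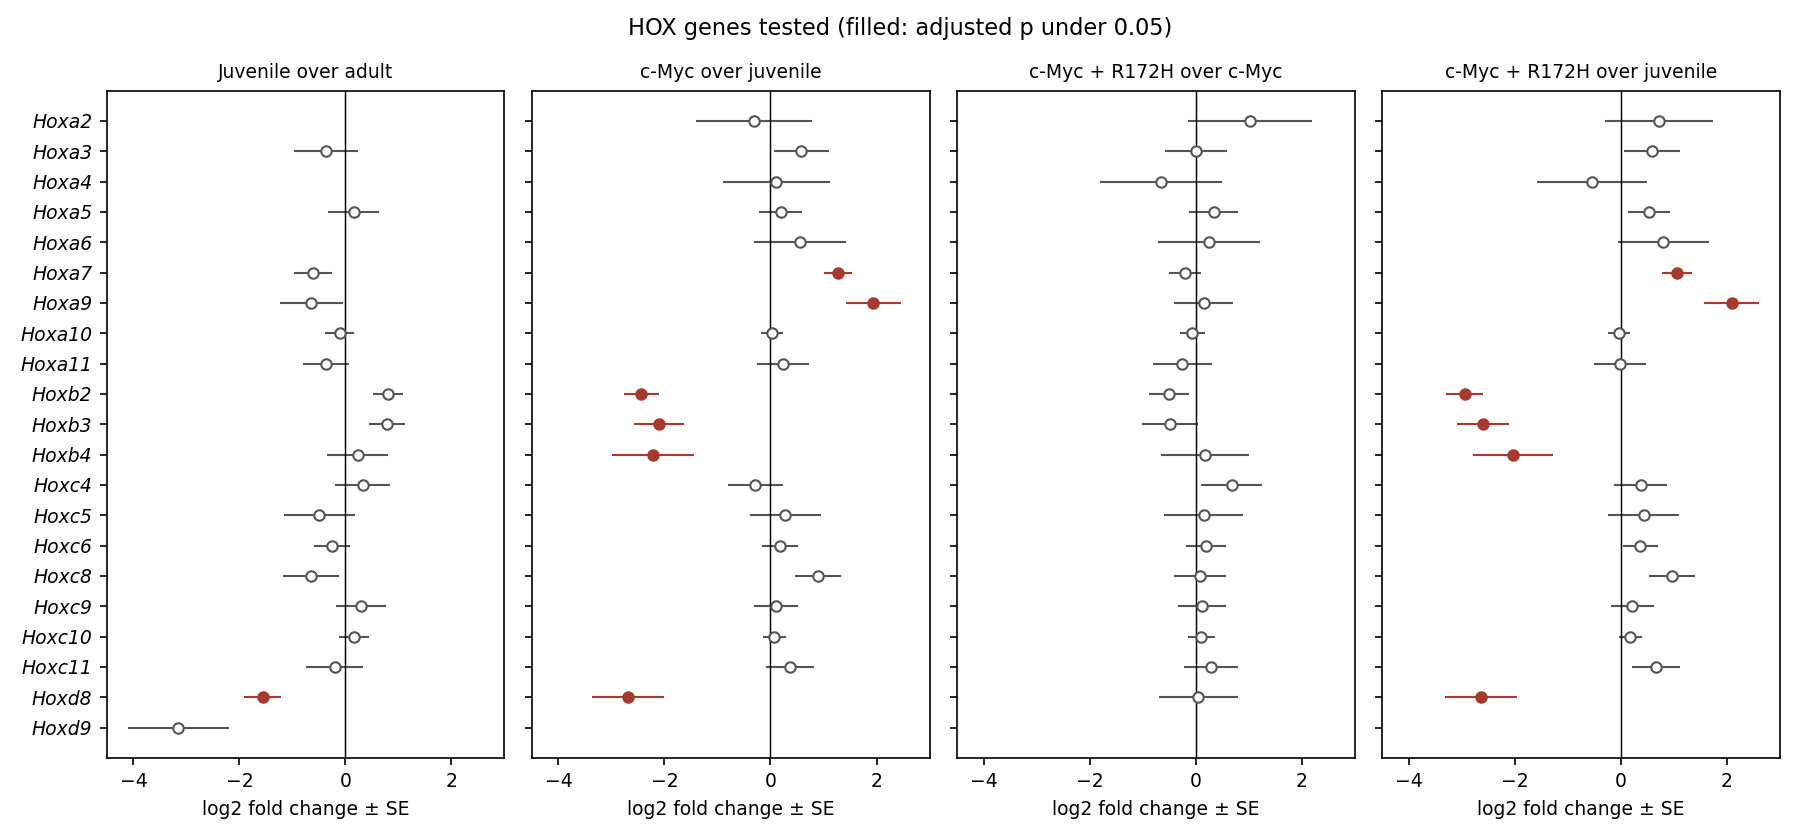
Log2 fold change ± SE (horizontal axis) of HOX genes tested, in cluster order on the vertical axis, in 4 panels for the 4 comparisons, with genes at adjusted p under 0.05 filled in red. *Hoxa7* and *Hoxa9* lie to the right and *Hoxb2*, *Hoxb3*, *Hoxb4* and *Hoxd8* to the left of 0 in both comparisons with juvenile osteoblasts, and no gene is filled in the comparison of the 2 induced groups.

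Adding the mutant p53 to *c-Myc* asked what loss of p53 function does on top of the oncogene. No HOX gene was found to differ between *c-Myc* + *R172H* and *c-Myc* osteoblasts with these 2 libraries per group. Of 21 HOX genes, 0 were called higher, where 0.00794% of all genes tested were, and 0 lower, where 0.461% of all genes were. At an unadjusted p under 0.05 the count was 0 as well, and DESeq2 called 0. The log2 fold changes ran from -0.65 to 1.03, with SEs of 0.24 to 1.17, and differences within these errors cannot be told from 0.

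*Hoxb2* was at 4.61 and 5.61 CPM in *c-Myc* and at 3.34 and 3.72 CPM in *c-Myc* + *R172H* libraries (log2 fold change -0.50, SE 0.37, edgeR adjusted p = 1.0). *Hoxa9* was at 10.4 and 11.6 CPM against 11.7 and 12.2 CPM (log2 fold change 0.15, SE 0.56), and *Hoxa7* at 10.6 and 8.51 against 8.28 and 7.94 CPM (-0.20, SE 0.31). For *Hoxd8* the libraries held 10 and 6 counts against 7 and 10. All 7 HOXC genes had a positive fitted log2 fold change, with a median of 0.15, and none of them passed the test.

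*c-Myc* + *R172H* osteoblasts were also compared with juvenile osteoblasts. This comparison shares its juvenile libraries with that of *c-Myc* over juvenile, and its *c-Myc* + *R172H* libraries with that over *c-Myc*. Similar values in these comparisons are therefore not independent. Again 2 of 21 HOX genes were higher, where 30.4% of all genes tested were, and 4 were lower, where 26.3% of all genes were. The median log2 fold change was 0.37 for the HOX genes and 0.076 for all genes. The 2 groups did not overlap for 7 of the 21 HOX genes and for 66.7% of all genes tested. With library totals the median of all genes was 1.12, and 11 HOX genes were called higher and 2 lower.

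*Hoxa9* was at 11.7 and 12.2 CPM in *c-Myc* + *R172H* libraries, above all 4 juvenile ones (4.25-fold higher, log2 fold change 2.09, SE 0.52, edgeR adjusted p = 0.00406). *Hoxa7* was 2.09-fold higher (log2 fold change 1.06, SE 0.28, edgeR adjusted p = 0.00557), and with replicate 1 or 2 of *c-Myc* + *R172H* left out the adjusted p was 0.0634 or 0.051. *Hoxb2* was 7.67-fold lower (log2 fold change -2.94, SE 0.35, edgeR adjusted p = 1.33e-05). In the same comparison *Hoxb3* was at 0.687 and 1.94 CPM, below every juvenile library (log2 fold change -2.60, SE 0.49, edgeR adjusted p = 0.000634).

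*Hoxb4* was at 0.824 and 0.695 CPM (log2 fold change -2.03, SE 0.75, edgeR adjusted p = 0.0353), a call lost without juvenile replicate 4 (adjusted p = 0.0777), in 4 of the other 7 fits that leave out 1 library and with library totals (0.249). *Hoxd8* was at 0.320 and 0.496 CPM (log2 fold change -2.63, SE 0.68, edgeR adjusted p = 0.00518), and without *c-Myc* + *R172H* replicate 1 the adjusted p was 0.0881 and with library totals 0.0547. *Hoxc8* was at 5.90 and 5.31 CPM, above every juvenile library, and missed the threshold (log2 fold change 0.97, SE 0.43, edgeR adjusted p = 0.0723). *Hoxb5*, with 0 and 2 counts, was too low for the edgeR filter and was called lower by DESeq2 (adjusted p = 0.011) and by edgeR with TMM computed without *Col1a1*, *Col1a2* and *Gm26917* (0.0265).

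The 6 genes that changed lie in 3 clusters. In GRCm38, *Hoxa7* (chr6:52214491-52221854) and *Hoxa9* (chr6:52223100-52231089) lie on the minus strand, and *Hoxb4* (chr11:96318267-96321638), *Hoxb3* (chr11:96323326-96347930), *Hoxb2* (chr11:96350525-96354012) and *Hoxd8* (chr2:74704615-74707933) on the plus strand. The 250 bases before the RefSeq start (GRCm38.p6) were read for the 22 HOX genes with an entry, which gave 24 windows. They were searched on both strands for the E-box CACGTG, which MYC with MAX binds, for the HOX and PBX motif TGATNNAT, and for TTTATNG, a motif of posterior HOX proteins. The E-box was in 16.7% of the HOX windows and in 6.02% of 32851 windows of all genes, the HOX and PBX motif in 16.7% and 7.68%, and the posterior motif in 8.33% and 9.81%. The E-box windows belonged to *Hoxd1*, *Hoxd10*, *Hoxd11* and *Hoxd13*, which had at most 1 count in any library apart from the 19 counts of *Hoxd13* in adult replicate 2. The upstream windows of 4 of the genes that changed, without *Hoxb2* and *Hoxb3*, are shown with that of *Hoxd10*, in lower case with any of the 3 motifs in capitals, read 5′ to 3′ on the strand of the gene. Only *Hoxd10* has capitals, and for *Hoxa7*, *Hoxa9*, *Hoxb4* and *Hoxd8* these letters are not in the window. The *Hoxa7* and *Hoxa9* windows lie inside the gene spans given above. The bases before the 5′ ends of those 2 spans were not searched.
Hoxa7 (chr6:52218574-52218823, minus strand): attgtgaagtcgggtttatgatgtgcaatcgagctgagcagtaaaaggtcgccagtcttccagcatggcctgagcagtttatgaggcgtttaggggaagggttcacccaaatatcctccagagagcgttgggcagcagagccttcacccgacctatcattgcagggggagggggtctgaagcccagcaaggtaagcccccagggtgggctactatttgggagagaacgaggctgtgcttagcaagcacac
Hoxa9 (chr6:52227371-52227620, minus strand): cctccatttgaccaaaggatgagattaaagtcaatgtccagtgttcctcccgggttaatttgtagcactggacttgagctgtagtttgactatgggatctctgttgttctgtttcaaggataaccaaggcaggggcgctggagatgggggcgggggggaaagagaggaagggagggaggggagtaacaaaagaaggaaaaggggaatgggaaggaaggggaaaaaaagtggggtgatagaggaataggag
Hoxb4 (chr11:96318017-96318266, plus strand): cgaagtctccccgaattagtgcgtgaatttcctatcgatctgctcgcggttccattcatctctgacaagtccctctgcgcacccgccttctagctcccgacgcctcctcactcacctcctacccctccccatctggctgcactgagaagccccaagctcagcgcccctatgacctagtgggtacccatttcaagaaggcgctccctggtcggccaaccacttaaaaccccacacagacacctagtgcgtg
Hoxd8 (chr2:74704365-74704614, plus strand): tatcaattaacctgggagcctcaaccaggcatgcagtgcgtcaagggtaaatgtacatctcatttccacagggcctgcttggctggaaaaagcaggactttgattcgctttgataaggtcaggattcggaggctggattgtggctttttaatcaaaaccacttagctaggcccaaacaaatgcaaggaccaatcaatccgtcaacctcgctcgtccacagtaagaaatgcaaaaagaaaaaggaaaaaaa
Hoxd10 (chr2:74691641-74691890, plus strand): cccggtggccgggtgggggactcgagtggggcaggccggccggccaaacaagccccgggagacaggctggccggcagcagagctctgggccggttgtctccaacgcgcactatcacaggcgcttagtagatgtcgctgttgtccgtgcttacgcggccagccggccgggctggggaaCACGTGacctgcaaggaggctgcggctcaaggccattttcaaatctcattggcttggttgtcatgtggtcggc

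Other genes of limb position were read from a list of 26. *Pitx1*, which specifies the hindlimb, was expressed in every library, at 9.49 to 15.5 CPM in juvenile, 17.5, 7.00, 7.37 and 11.6 CPM in adult, 24.3 and 24.2 CPM in *c-Myc* and 18.8 and 19.6 CPM in *c-Myc* + *R172H* libraries. All induced libraries stood above all controls, and *Pitx1* rose 2.04-fold with *c-Myc* (log2 fold change 1.03, SE 0.19, edgeR adjusted p = 0.000687) and 1.65-fold with *c-Myc* + *R172H* (log2 fold change 0.72, SE 0.20, edgeR adjusted p = 0.00737). *Tbx4*, a hindlimb gene downstream of it, had 14, 22, 9 and 5 counts in juvenile, 6, 3, 4 and 0 in adult, 2 and 4 in *c-Myc* and 0 and 2 in *c-Myc* + *R172H* libraries. It was called lower in both induced groups (edgeR adjusted p = 0.0335 and 0.0084), from counts that are near 0, and the *c-Myc* call was kept in 9 of 18 alternatives. *Tbx5*, its forelimb counterpart, had 0 to 9 counts per library, and *Isl1*, an early hindlimb gene, was at 0 in all 12.

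Of the 26 limb genes, 12 were tested between the ages, where 0 were higher and 2 lower in juvenile osteoblasts, against 1.89% and 3.23% of all genes tested. *Shox2*, a growth gene of the upper limb segment, was at 40.4 to 45.5 CPM in juvenile and 55.1 to 73.2 CPM in adult libraries (log2 fold change -0.56, SE 0.13, edgeR adjusted p = 0.0179). *Cyp26b1*, which degrades retinoic acid, was at 9.22 to 15.1 and 16.8 to 27.1 CPM (log2 fold change -0.94, SE 0.22, edgeR adjusted p = 0.0224). Neither gene's age groups overlapped, as for 12.9% of all genes tested. Each call was lost in 4 of 8 fits that leave out 1 library, with adjusted p up to 0.0681 for *Shox2* and 0.0809 for *Cyp26b1*. Without juvenile replicate 1 neither passed.

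With *c-Myc*, 2 of the 17 limb genes tested were higher, *Pitx1* and the homeobox gene *Msx2* (log2 fold change 1.80, SE 0.56), and 7 were lower. That is 11.8% and 41.2% of the list, against 28.4% and 25.0% of all genes tested. Without *c-Myc* replicate 2 *Msx2* was not called, and without replicate 1 only 3 genes were lower (*Tbx2*, *Cyp26b1* and *Dlx5*). *Tbx2*, a repressor active in the limb margins, was at 122 to 168 CPM in juvenile libraries and at 19.2 and 28.1 CPM in *c-Myc* libraries (log2 fold change -2.64, SE 0.21, edgeR adjusted p = 6.31e-07). *Cyp26b1* fell by 2.90 on the log2 scale (SE 0.38) and *Grem1*, a BMP antagonist, by 1.98 (SE 0.58). *Dlx5* (-0.98, SE 0.13), *Alx4* (-2.74, SE 1.01) and *Tbx4* were also lower. For *Alx4* the groups overlapped, with juvenile replicate 4 at 0.124 CPM against 0.731 and 0.567 CPM in *c-Myc* libraries. Its call was kept in 3 of 8 fits that leave out 1 library with *c-Myc*, and in 4 of 8 with *c-Myc* + *R172H*. With library totals *Grem1*, *Dlx5*, *Alx4* and *Tbx4* were not called (edgeR adjusted p = 0.0922, 0.436, 0.112 and 0.0903). The log2 fold change of *Dlx5* was then -0.14, and -0.11 with *c-Myc* + *R172H* (adjusted p = 0.542). *Shox2* was lower as well (-0.50, SE 0.12), but with library totals its log2 fold change turned to 0.33 (adjusted p = 0.0789). In *c-Myc* + *R172H* osteoblasts the same 2 genes were higher than in juvenile osteoblasts, and the same 7 and *Tbx15* (-0.36, SE 0.14) were lower, but with library totals *Shox2* and *Tbx15* were called higher (0.55 and 0.68, adjusted p = 0.00565 and 0.00394). Of the 17, 0 differed from *c-Myc* alone by edgeR or DESeq2, with 2 at an unadjusted p under 0.05. With library totals the counts were 4 higher and 2 lower for *c-Myc* and 6 and 4 for *c-Myc* + *R172H*. *Tbx15* was called in 7 of its 18 alternatives, and without *c-Myc* + *R172H* replicate 1 or 2 neither *Pitx1* (adjusted p = 0.0558 or 0.0851) nor *Msx2* (0.0548 or 0.181) was called in that group.

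**Figure D5:**
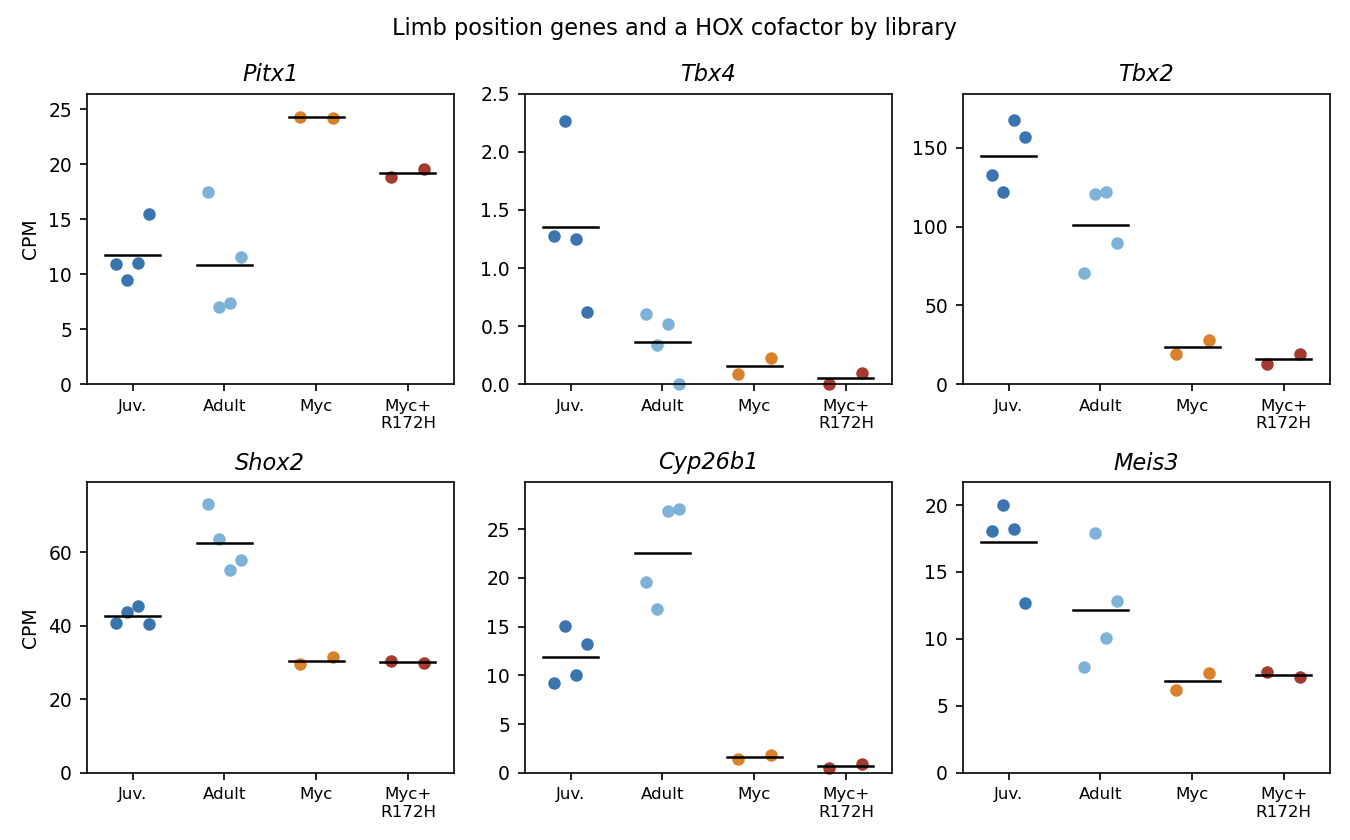
CPM of 5 limb position genes and the HOX cofactor *Meis3* in every library (points) with the group mean (line), by group on the horizontal axis. *Pitx1* is above all controls in the 4 induced libraries, while *Tbx2*, *Shox2*, *Cyp26b1* and *Meis3* are below them. With library totals *Shox2* is not lower, at a log2 fold change of 0.33 with *c-Myc* and 0.55 with *c-Myc* + *R172H*. *Meis3* is then called in neither, at -0.54 and -0.20. Of all genes tested, 64.5% and 66.7% do not overlap between these induced groups and juvenile libraries.

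Of the 9 TALE cofactor genes, 8 were tested and 0 differed between the ages by edgeR or DESeq2, with 1 at an unadjusted p under 0.05. With *c-Myc*, 0 were higher and 3, or 37.5%, lower, against 28.4% and 25.0% of all genes tested. *Meis3* was at 12.7 to 20.0 CPM in juvenile and at 6.21 and 7.49 CPM in *c-Myc* libraries (log2 fold change -1.36, SE 0.24, edgeR adjusted p = 0.000376). *Pbx2* was at 16.1 to 33.4 CPM and at 11.7 CPM in both *c-Myc* libraries (log2 fold change -1.03, SE 0.26, edgeR adjusted p = 0.00497), and *Pknox2* had a log2 fold change of -2.60 (SE 0.96, edgeR adjusted p = 0.0363). The same 3 were lower in *c-Myc* + *R172H* osteoblasts. With library totals *Meis3* had log2 fold changes of -0.54 and -0.20 in the 2 comparisons and *Pbx2* of -0.22 and -0.15, none of them called. *Pknox2* was then called only with *c-Myc* + *R172H*. *Pknox2* kept its *c-Myc* call in 3 of 8 fits that leave out 1 library. With library totals 3 and 4 cofactors were called higher in the 2 comparisons, and 0 and 1 lower, so the direction of this list as a whole depends on the scaling.

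Noncoding genes of the clusters were low. Of the 17 on the list, 11 were in the table, and 2 were tested between the ages and 4 in the other comparisons, of which 0 were called in any comparison by edgeR or DESeq2, or had an unadjusted p under 0.05. *Hotairm1*, of the HOXA cluster, was detected in every library, at 7 to 45 counts, and *Hoxa11os*, antisense to *Hoxa11*, at 5 to 38. *Hotair* and *Hottip*, long noncoding RNAs of the posterior HOXC and HOXA ends, had at most 2 counts. The miRNA genes of the clusters were not analysed here.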

How the data were processed

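RNA of sorted mGFP+, CD31−CD45−TER119− metaphyseal cells was sequenced as 86-base single-end reads. The authors removed adaptors (cutadapt 4.6), mapped reads to mm10 (STAR 2.7.11a) and deposited raw counts of uniquely mapped reads per gene (HTSeq 2.0.5). The strand setting of the counting is not given in the sources used here, so genes overlapping on opposite strands are uncertain. The HOX genes and all lists were chosen with earlier results of these data known.

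Groups came from the sample titles. Nothing says that replicates came from separate litters, and counts of every pair of same-group libraries differed by more than sampling noise. edgeR 4.0.16 (R 4.3.3) was run on the deposited counts with TMM, its default expression filter, robust quasi-likelihood F tests, and p-values adjusted by Benjamini-Hochberg over all genes, called at 0.05. The age fit held 8 libraries, and the other comparisons shared 8 juvenile and induced libraries. SEs were obtained as the size of the log2 change over the root of F. Displayed CPM used TMM over 12 libraries. Exon lengths and overlaps came from GENCODE vM21 (GRCm38), not the release used for counting. HOX genes called are given in full, some genes are not reported here, and of the list genes those called were named, with *Pitx1*, *Tbx4*, *Tbx5* and *Isl1*. The alternatives were RLE and upper-quartile scaling, library totals, TMM without *Col1a1*, *Col1a2* and *Gm26917*, no filter, DESeq2 1.42.0, other libraries in the fit, a replicate block, each library left out, a fold limit and other gene lengths. The scripts were tested on simulated counts.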

Additional observations from a re-analysis of the deposited data

Results flagged for a closer look

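In 53 sets of 4 control libraries with more than 3 counts of a HOX gene in at least 1 library, 4 held a library far from the other 3, and chance alone flags about 1 in 20 sets of normally distributed values. That rate does not apply to 3 of the 4, where the other libraries were at 0. *Hoxd13*, a foot gene, was at 2.14 CPM in adult replicate 2 and at 0 in the other adult libraries. *Hoxb7* was at 0.608 CPM in adult replicate 1 and *Hoxd4* at 0.640 CPM in adult replicate 4, with 0 in the other 3 adult libraries in both cases. *Hoxc5*, a trunk patterning gene, was at 6.08 CPM in adult replicate 4 against 1.68 to 2.43 CPM in the others. The 19 counts of *Hoxd13* and 10 counts of *Hoxb9* (1.13 CPM, the highest of the 12 libraries) came from the same library, adult replicate 2.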

How the results depend on the processing

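For juvenile over adult, 1 HOX gene, *Hoxb2*, was higher without the filter and with a replicate block, 2 were lower with library totals or DESeq2, and leaving out 1 library gave 0 to 1 higher and 0 to 1 lower. For *c-Myc* over juvenile, library totals gave 10 higher and leaving out 1 library gave 2 to 3 higher and 2 to 4 lower. Without the female induced libraries, a setting chosen after seeing the data that leaves 1 library in each induced group, assumed to vary like the others, 1 was higher and 2 lower. For *c-Myc* + *R172H* over juvenile, library totals gave 11 higher and 2 lower, leaving out 1 library gave 1 to 3 higher and 2 to 4 lower, and without the female libraries 0 were higher and 2 lower. The cause of these shifts was not tested. For *c-Myc* + *R172H* over *c-Myc*, 0 HOX genes were called under every setting. *Hoxb2* and *Hoxb3* kept their calls against juvenile osteoblasts under all 18 alternatives in both comparisons. Replicate numbers do not pair the samples by any label, and same-numbered libraries deviated together with correlations of -0.05 to 0.14. With longest transcripts or unshared exon lengths, 9 of the 10 highest HOX genes were the same. Most HOX genes lie under 100 counts per library, which limits small changes.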
